A study of Arabidopsis thaliana with 24 samples.

Results

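The nuclear genome of Arabidopsis thaliana encodes the chlorophyll-binding antenna of both photosystems (LHCA and LHCB genes) and many small subunits of photosystem I (PSA) and photosystem II (PSB). A fixed list of 42 such loci, of the 33602 genes in the count files, was followed through all groups and both parental alleles. The list held 20 antenna genes and 22 PSA or PSB genes, was named by locus with no threshold on a measured value, although it was drawn up with earlier results of these data known, and all 42 were present in the parental and F1 files. RNA was measured in 24 libraries of entire seedlings, 3 in each of 8 groups. Columbia (Col) WT, Col prmt5-5, Landsberg erecta (Ler) WT and Ler prmt5-5 were the parental groups. The F1 groups were WT Col x Ler, WT Ler x Col, and the same crosses between prmt5-5 Col and prmt5-5 Ler, so that a mutant F1 received the allele from both parents. Per the labels, prmt5-5 was isolated in Col-0 and taken into Ler by 7 generations of backcrossing, so WT and mutant can also differ at linked sites. Cross names give the parents as the labels order them, which was not taken to name the seed parent. All seedlings were grown for 9 days in continuous white light at 22 °C on agar medium after 4 days of cold stratification in the dark.

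As background, LHC proteins bind chlorophyll a, chlorophyll b and carotenoids and pass absorbed light energy to the reaction centres. LHCB1, LHCB2 and LHCB3 build the trimers of major light-harvesting complex II (LHCII), LHCB4, LHCB5 and LHCB6 are the monomeric minor antenna that link trimers to the photosystem II core, and LHCA1 to LHCA4 form the antenna belt of photosystem I (LHCI). Most of these genes respond to light and to the circadian clock, and GLK transcription factors activate many of them. PRMT5 (symbol SKB1 in RefSeq) is a protein arginine methyltransferase whose known substrates include histones and spliceosomal proteins, and plant mutants have altered splicing, flowering time and clock function.

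Of the 42 members, 7 are near-identical copies, which matters for the values of these copies because a read of 100 bases can match more than 1 of them. Their coding sequences were at least 90% identical to another member, with 96.6% between LHCB2.1 and LHCB2.2, 96.4% between LHCB1.2 and LHCB1.3, and 91.4% between LHCB1.4 and LHCB1.5. The same stretch of coding sequence, 100 bases long, is shown for each copy as it stands in the RefSeq TAIR10.1 genome, which carries the Col sequence. Capitals mark bases that differ from LHCB1.1 in the LHCB1 copies and from LHCB2.1 in the LHCB2 copies. The stretches lie at chr1:10475493-10475592 (LHCB1.1, minus strand), chr1:10472847-10472946 (LHCB1.2, minus), chr1:10478371-10478470 (LHCB1.3, plus), chr2:14525115-14525214 (LHCB1.4, plus), chr2:14523120-14523219 (LHCB1.5, minus), chr2:1823847-1823946 (LHCB2.1, minus), chr2:1799834-1799933 (LHCB2.2, minus) and chr3:10256424-10256523 (LHCB2.3, plus).
LHCB1.1: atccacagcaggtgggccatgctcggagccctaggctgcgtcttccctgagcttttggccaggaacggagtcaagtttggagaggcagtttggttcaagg
LHCB1.2: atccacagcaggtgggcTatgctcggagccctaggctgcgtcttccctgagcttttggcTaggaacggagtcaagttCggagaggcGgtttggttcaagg
LHCB1.3: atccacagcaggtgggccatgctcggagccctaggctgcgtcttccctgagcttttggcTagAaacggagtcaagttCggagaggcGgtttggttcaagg
LHCB1.4: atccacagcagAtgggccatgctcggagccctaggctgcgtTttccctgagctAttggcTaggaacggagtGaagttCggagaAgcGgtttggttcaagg
LHCB1.5: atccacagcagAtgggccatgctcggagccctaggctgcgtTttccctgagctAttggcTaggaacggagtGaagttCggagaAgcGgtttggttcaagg
LHCB2.1: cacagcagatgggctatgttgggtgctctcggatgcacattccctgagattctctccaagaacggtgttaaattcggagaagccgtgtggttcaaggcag
LHCB2.2: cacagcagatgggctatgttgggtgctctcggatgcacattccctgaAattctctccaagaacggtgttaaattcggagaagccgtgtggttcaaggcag
LHCB2.3: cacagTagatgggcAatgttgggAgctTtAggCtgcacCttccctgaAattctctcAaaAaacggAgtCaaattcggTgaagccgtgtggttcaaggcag
LHCB1.4 and LHCB1.5, neighbours on chromosome 2, had the same letters throughout this stretch and differed from LHCB1.1 at 8 bases. LHCB2.1 and LHCB2.2 differed at 1 base, and LHCB2.3 differed from LHCB2.1 at 13 bases. Of all windows of 100 bases in the transcript of LHCB2.2, 12.4% were present letter for letter in LHCB2.1, against 1.5% for LHCB1.2 and LHCB1.1. How the authors counted such reads was not given in the sources used here, so values of single LHCB1 and LHCB2 copies are uncertain.

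Parental libraries held 36993250 to 72713735 counts and F1 libraries 6047673 to 29376326 allele-assigned counts, and Col WT replicate 2 was the shallowest parental library. The labels were checked by the alleles of PRMT5 (SKB1, AT4G31120): the Ler allele gave 53.1% of 1046 counts in the WT F1 libraries (95% exact interval 49.98 to 56.12%) and 0.189% of 1057 counts in the prmt5-5 F1 libraries (0.0229 to 0.682%), where 5 of 6 libraries had no Ler count. These intervals cover counting error only. Total PRMT5 RNA was 29.95 to 32.38 CPM (counts scaled to library size after TMM) in Col WT and 30.13 to 36.17 CPM in Col prmt5-5, and 32.34 to 34.70 CPM in Ler WT and 29.66 to 37.17 CPM in Ler prmt5-5, so the groups overlapped. No label states that replicates came from separate plantings, and p-values therefore measure only how these samples vary. Of the 24 libraries, 5 were picked out, with no set rule, as apart from their group in the summed members. Col WT replicate 2 and F1 Col x Ler prmt5-5 replicate 3 were low, Ler prmt5-5 replicate 1 was high, and F1 Ler x Col replicate 1 was low in WT and high in prmt5-5. Other groups were not all tight, and WT F1 Col x Ler ran from 104800 to 134700 CPM.

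The 42 genes were a large share of the RNA. They summed to 88960 to 122041 CPM in Col WT and 75094 to 82325 CPM in Col prmt5-5. In Ler they summed to 127676 to 141974 CPM in WT against 79258 to 98343 CPM in prmt5-5. No mutant library reached the lowest WT library of its own accession, and Col WT replicate 2 was the WT library nearest to the mutants. Major LHCII was the largest role in each parental group, with 35970 ± 8134 CPM (SD, n = 3) in Col WT against 22820 ± 1263 in Col prmt5-5, and 51300 ± 4299 in Ler WT against 28020 ± 3397 in Ler prmt5-5. Per kb of exon in Col WT, LHCB1.3 had the highest level of the members, 11230 CPM per kb, and the minor-antenna gene LHCB4.3 the lowest, 85.2 CPM per kb. In whole seedlings, fewer green cells and less of these RNAs per cell cannot be told apart.

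**Figure D1:**
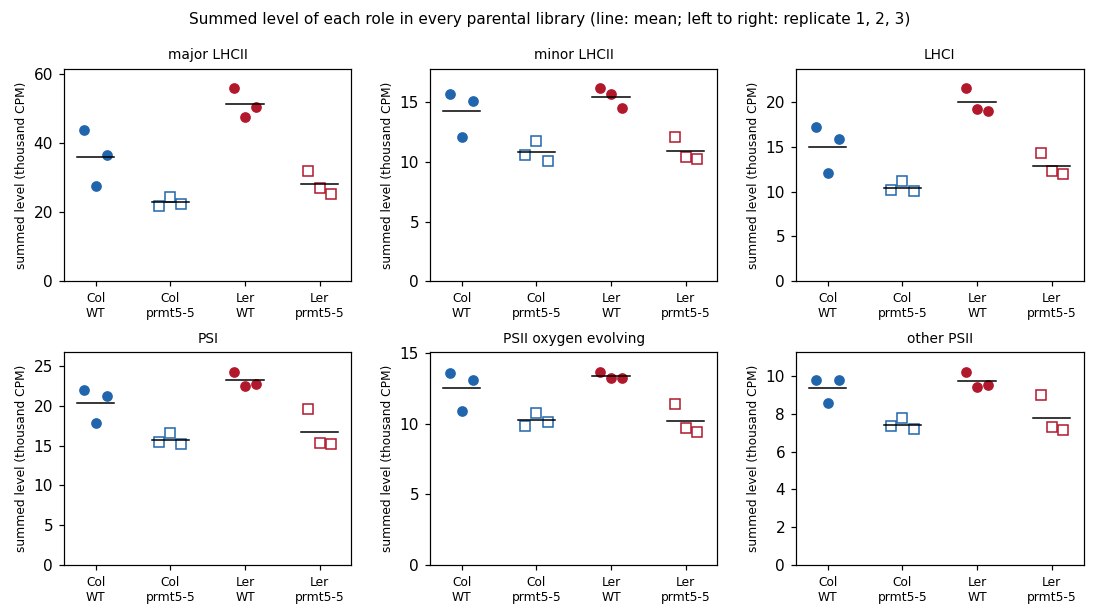
Summed level of each role (in units of 1000 CPM, y axis from 0) in every parental library, with replicates 1, 2 and 3 from left to right and a line at the group mean. In major LHCII the 3 Ler WT libraries lie between 47490 and 55960 CPM and the 3 Ler prmt5-5 libraries between 25360 and 31840 CPM, and Col WT replicate 2 is the lowest WT point in all 6 panels for Col.

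The first comparison asked how the mutation altered these genes in each accession. In Col, 28 of 42 members fell in prmt5-5 and none rose (edgeR's quasi-likelihood test, Benjamini-Hochberg adjusted p under 0.05), where 12.3% of all 22924 genes tested were called lower and 14.6% higher. In Ler, 37 of 42 fell and 1 rose, where 16.9% of all genes were called lower and 18.9% higher. The median log2 change of the members was -0.38 in Col and -0.48 in Ler, beside 0.00558 and 0.00839 over all genes tested. All 28 genes that fell in Col also fell in Ler, which is 100% of the Col list and 75.7% of the Ler list. With 37 of 42 members lower in Ler, a large overlap was bound to occur, and the overlap over all genes was not counted. In Col 31 members had every mutant library below every WT library, against 22.1% of all genes, and in Ler 38 did, against 21.2%. Leaving out a library moved the Col count: 14 were called without WT replicate 1 or without prmt5-5 replicate 1, 16 without WT replicate 3 or without prmt5-5 replicate 3, and 38 without WT replicate 2, while the log2 values of all 42 members stayed below 0 in these fits except that without prmt5-5 replicate 3, where 1 member that was not called had 0.018. In Ler it ranged from 26, without prmt5-5 replicate 3, to 41, without prmt5-5 replicate 1.

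**Figure D2:**
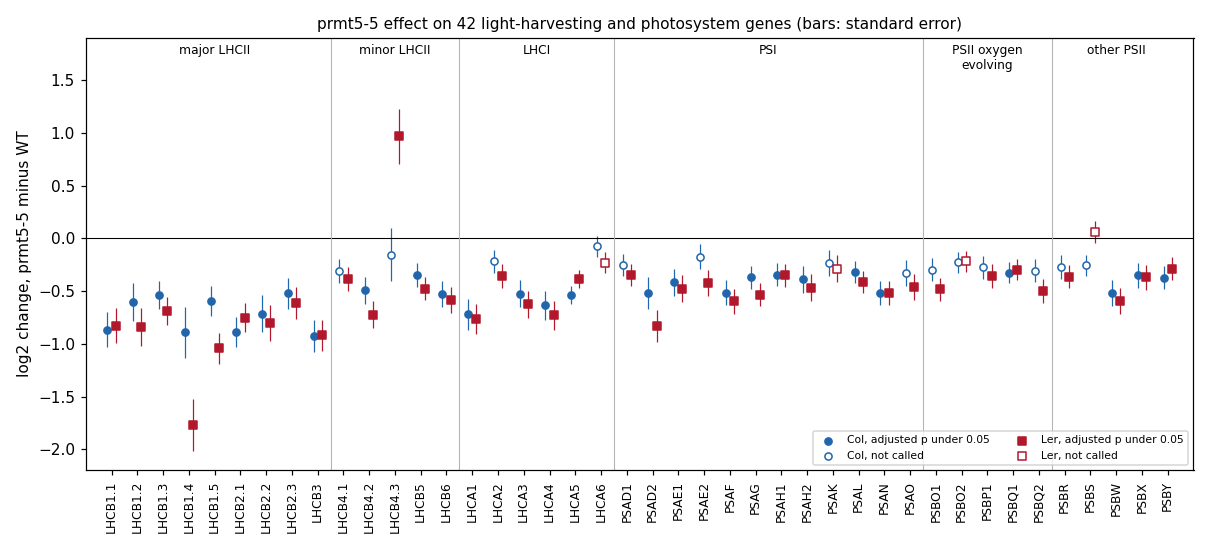
Change in prmt5-5 against WT (log2, y axis) for each of the 42 members, grouped by role, in Col (blue circles) and Ler (red squares), with bars for the standard error and filled symbols for adjusted p under 0.05. The 9 major LHCII genes are all filled and lie between -0.52 and -1.77, and LHCB4.3 in Ler, at 0.96, is the only filled symbol above 0.

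All 9 major LHCII genes fell in both accessions, with a median log2 change of -0.71 in Col and -0.83 in Ler. LHCB3, the trimer subunit with no second copy (AT5G54270, chr5:22038165-22039568, plus strand), had 4082, 2651 and 3659 CPM in Col WT and 1691, 2113 and 1659 CPM in Col prmt5-5. Ler libraries had 4750, 4265 and 4073 CPM in WT against 2576, 2231 and 2106 CPM in prmt5-5. Every mutant library lay below every WT library in both accessions. The change of LHCB3 was -0.93 ± 0.15 (log2 ± SE, adjusted p = 0.0004965) in Col and -0.92 ± 0.15 (adjusted p = 0.000381) in Ler.

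LHCB2.1 (AT2G05100, chr2:1822990-1824480, minus strand), an LHCII subunit phosphorylated in state transitions, had 2686, 1660 and 2284 CPM in Col WT and 1134, 1320 and 1123 CPM in Col prmt5-5. Ler WT gave 1738, 1699 and 1525 CPM and Ler prmt5-5 gave 1015, 994.7 and 936.1 CPM. The groups did not overlap, and the changes were -0.89 ± 0.14 (adjusted p = 0.000405) in Col and -0.75 (adjusted p = 0.00101) in Ler. LHCB1.1 (AT1G29920, chr1:10474656-10475969, minus strand), a copy among 3 neighbours on chromosome 1, had 4519, 2741 and 3789 CPM in Col WT against 1957, 2222 and 1881 CPM in Col prmt5-5, and 6634, 5127 and 5643 CPM in Ler WT against 3846, 3137 and 2829 CPM in Ler prmt5-5. It fell by 0.87 in Col and by 0.83 in Ler on the log2 scale, again with no overlap. LHCB1.2, LHCB1.3, LHCB2.2 and LHCB2.3 had log2 changes of -0.61, -0.53, -0.71 and -0.52 in Col and of -0.84, -0.69, -0.80 and -0.62 in Ler.

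The pair on chromosome 2, LHCB1.4 (AT2G34430, chr2:14524607-14525918, plus strand) and LHCB1.5 (AT2G34420, chr2:14522524-14523568, minus strand), had the 2 largest falls of the 42 in Ler. LHCB1.4 had 4476, 3128 and 3552 CPM in Ler WT and 1452, 952.9 and 875.7 CPM in Ler prmt5-5, a 3.40-fold lower level (log2 -1.77 ± 0.25, adjusted p = 0.0002545). In Col it had 1976, 998.4 and 1433 CPM in WT against 767.1, 816 and 798.1 CPM in prmt5-5 (log2 -0.89 ± 0.24, adjusted p = 0.0181). Even the lowest WT library stood above the highest mutant library in each accession. LHCB1.5 had 10720, 9337 and 10510 CPM in Ler WT against 5564, 4892 and 4371 CPM in prmt5-5 (log2 -1.04 ± 0.15, adjusted p = 0.0001171). Col WT gave 6881, 4367 and 5845 CPM and Col prmt5-5 gave 3642, 4008 and 3671 CPM (log2 -0.59, adjusted p = 0.007553), again without overlap. With the counts of the 5 LHCB1 copies summed before the fit, LHCB1 fell by 0.61 in Col and by 0.89 in Ler on the log2 scale, and the values of single copies depend on how reads were divided between them.

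In the minor antenna 3 of 5 genes fell in Col, and 4 fell and 1 rose in Ler. LHCB6 (AT1G15820, chr1:5446462-5447880, minus strand), which links trimers to the core through LHCB4, had 4153, 3275 and 4103 CPM in Col WT and 2581, 2932 and 2458 CPM in prmt5-5. For Ler, LHCB6 had 4825, 4334 and 4033 CPM in WT against 3347, 2688 and 2740 CPM in prmt5-5. The groups did not overlap in either accession, and the log2 changes were -0.53 ± 0.12 and -0.59 (adjusted p = 0.005814 and 0.002307). The paralogue LHCB4.2 (AT3G08940, chr3:2717557-2718923, plus strand) had 2154, 1524 and 2079 CPM in Col WT and 1280, 1519 and 1291 CPM in Col prmt5-5, and 2007, 1801 and 1621 CPM in Ler WT against 1135, 1085 and 1061 CPM in Ler prmt5-5. It fell by 0.49 in Col and by 0.73 in Ler. LHCB5 fell by 0.35 and by 0.48, and LHCB4.1 by 0.39 in Ler, with a log2 value of -0.31 (adjusted p = 0.05312) in Col.

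LHCB4.3 (AT2G40100, chr2:16745628-16747424, plus strand), a low-expressed relative of LHCB4.1 and LHCB4.2 that is known to rise under long exposure to strong light, was the only member that rose. It had 42.4, 60.1 and 62.1 CPM in Ler WT and 81.1, 116.6 and 123.3 CPM in Ler prmt5-5 (log2 0.96 ± 0.26, adjusted p = 0.01501), with no overlap. In Col the WT libraries had 85.6, 142.3 and 142.3 CPM and the mutant libraries 114.5, 135.5 and 82.9 CPM, which overlapped (log2 -0.15, adjusted p = 0.7003). The call for LHCB4.3 in Ler was lost without prmt5-5 replicate 2 and without prmt5-5 replicate 3 (highest adjusted p 0.0535).

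Of the LHCI genes, 4 of 6 fell in Col and 5 of 6 in Ler. LHCA1 (AT3G54890, chr3:20339504-20341176, minus strand), part of a dimer with LHCA4 in the belt, had 4113, 2690 and 3668 CPM in Col WT and 2069, 2269 and 2014 CPM in Col prmt5-5. Ler libraries had 5995, 4968 and 5016 CPM in WT against 3571, 2994 and 2830 CPM in prmt5-5. LHCA1 fell by 0.72 ± 0.15 (SE) in Col and by 0.77 in Ler on the log2 scale, and no libraries overlapped. LHCA5 (AT1G45474, chr1:17179250-17180806, plus strand), a scarce subunit that helps join photosystem I to the NDH complex, had the smallest p of all members in Col. Its levels were 158, 156.8 and 170.1 CPM in Col WT and 113.1, 112.5 and 108 CPM in Col prmt5-5 (log2 -0.54 ± 0.08, adjusted p = 0.0003557), and 162.8, 159.8 and 162.3 CPM in Ler WT against 141.2, 116.9 and 113 CPM in Ler prmt5-5 (log2 -0.39, adjusted p = 0.002759). WT LHCA5 levels varied little, and Ler prmt5-5 replicate 1 was the mutant library nearest to WT. LHCA6, the other NDH linker, was not called in either accession, with 179.8 to 189.7 CPM in Col WT, 159.8 to 187.8 CPM in Col prmt5-5, 156.3 to 177 CPM in Ler WT and 123 to 163.4 CPM in Ler prmt5-5.

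Of the photosystem I subunits, 8 of 12 fell in Col (median of the 12, -0.36) and 11 of 12 in Ler (median -0.47). PSAD2 (AT1G03130, chr1:753307-754262, minus strand), a copy of the stromal subunit that docks ferredoxin, had 1251, 917.3 and 1228 CPM in Col WT and 692.4, 905.5 and 773.6 CPM in Col prmt5-5. Ler libraries had 1339, 1106 and 1079 CPM in WT against 791.8, 582.9 and 610.9 CPM in prmt5-5. The log2 changes of PSAD2 were -0.52 ± 0.15 (adjusted p = 0.02078) and -0.83 (adjusted p = 0.0009258), without overlap, and Col WT replicate 2 was close to Col prmt5-5 replicate 2. The other copy, PSAD1, which shares 86.3% of its coding sequence, had log2 values of -0.25 (adjusted p = 0.09321) in Col and -0.35 (adjusted p = 0.02047) in Ler. PSAF, which docks plastocyanin, fell by 0.52 and by 0.60. PSAN, a lumenal subunit, fell by 0.51 and by 0.52, and PSAG, PSAH1, PSAH2 and PSAL, at the edge of the complex where antenna bind, fell by 0.37, 0.35, 0.39 and 0.32 in Col and by 0.53, 0.35, 0.47 and 0.41 in Ler. PSAK, another antenna-facing subunit, had log2 values of -0.23 and -0.29 and was not called in either accession.

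Of the genes for the extrinsic proteins of the oxygen-evolving complex, 1 of 5 fell in Col and 4 of 5 in Ler. PSBQ1 (AT4G21280, chr4:11334352-11335815, plus strand) had 1641, 1519 and 1854 CPM in Col WT and 1292, 1426 and 1282 CPM in Col prmt5-5, and 1677, 1602 and 1473 CPM in Ler WT against 1401, 1189 and 1269 CPM in Ler prmt5-5 (log2 -0.33 and -0.30, adjusted p = 0.02567 and 0.02948). No PSBQ1 library of the mutant reached WT in either accession. Its paralogue PSBQ2 (AT4G05180, chr4:2671523-2673243, minus strand) had 1916, 1440 and 1847 CPM in Col WT and 1336, 1461 and 1412 CPM in Col prmt5-5, which overlapped. In Ler, PSBQ2 had 1955, 1824 and 1783 CPM in WT against 1471, 1202 and 1256 CPM in prmt5-5 (log2 -0.50, adjusted p = 0.00361), with no overlap. PSBO1, the main manganese-stabilising protein, and PSBP1 fell in Ler (log2 -0.48 and -0.36) and had values of -0.30 and -0.28 in Col, which did not pass the threshold, and PSBO2 was called in neither accession.

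Among the other photosystem II genes, 3 of 5 fell in Col and 4 of 5 in Ler. PSBW (AT2G30570, chr2:13019028-13020311, minus strand), a small subunit that stabilises photosystem II supercomplexes, had 1799, 1573 and 1716 CPM in Col WT and 1189, 1241 and 1119 CPM in Col prmt5-5. Ler WT had 2112, 1878 and 1857 CPM and Ler prmt5-5 1593, 1148 and 1134 CPM. PSBW fell by 0.52 and by 0.59 on the log2 scale (adjusted p = 0.006478 and 0.002099), with no overlap. PSBX and PSBY, small membrane subunits, fell by 0.35 and 0.37 in Col and by 0.37 and 0.29 in Ler. Over 18 fits, the main one and its alternatives, PSBX was not called in 6 in Col and in 4 in Ler. PSBY was not called in 2 of the 18 in Col and in 11 in Ler (highest adjusted p 0.187 in Ler). PSBS (AT1G44575, chr1:16870221-16873427, plus strand), the pH sensor for dissipation of excess light as heat, was called in neither accession. It had 1950, 1795 and 2126 CPM in Col WT, 1565, 1840 and 1505 CPM in Col prmt5-5, 1716, 1653 and 1455 CPM in Ler WT and 1704, 1610 and 1710 CPM in Ler prmt5-5, so WT and mutant libraries overlapped in both.

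Whether the effect differed between the accessions was tested by the interaction. No member was called, where 3.35% of all genes were called and 4119 of 22924 genes had an unadjusted p under 0.05. The 4 members with the smallest p were LHCB4.3 (effect in Ler minus effect in Col 1.12 ± 0.36, adjusted p = 0.1323), LHCB1.4 (-0.88 ± 0.34, 0.1956), LHCB1.5 (-0.45, 0.2631) and PSBS (0.32, 0.267). DESeq2 also called none. Without Ler prmt5-5 replicate 1, PSAE2, a stromal photosystem I subunit, was called, and with the replicate number as a factor LHCB1.4 was called.

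The accessions themselves were compared next. In WT, 9 members were higher and 3 lower in Ler than in Col, where 14.5% of all genes were called higher and 15.2% lower. The members called in either direction were thus a share near the 29.8% of all genes. The 9 were LHCB1.1, LHCB1.2, LHCB1.4, LHCB1.5, LHCB2.2, LHCA1, LHCA3, LHCA4 and PSAE2, and the 3 were LHCB2.1, LHCB4.3 and PSBS. Over 18 fits, the main one and its alternatives, PSBS was not called in 11 and LHCA3 in 7 (highest adjusted p 0.196 and 0.145). LHCB1.4 was 2.53-fold higher in Ler WT (log2 1.34 ± 0.24, adjusted p = 0.001309) and LHCB1.5 1.79-fold higher (log2 0.84, adjusted p = 0.0004835), and their WT libraries, given above, did not overlap. LHCB1.2 had 4284, 2243 and 3220 CPM in Col WT and 6444, 5295 and 5193 CPM in Ler WT (log2 0.80, adjusted p = 0.003757). LHCB2.2 had 1835, 1011 and 1445 CPM in Col WT and 2601, 2311 and 2245 CPM in Ler WT (log2 0.74, adjusted p = 0.005032). For both copies each Ler library was above each Col library. LHCB2.1 was lower in Ler (log2 -0.42), but with the LHCB2 copies summed the difference was 0.21 (adjusted p = 0.345), of the other sign for LHCB2.1 and not called for LHCB2.1 or LHCB2.2. PSAE2 also lost its call with the PSAE copies summed (log2 0.24, adjusted p = 0.173), whereas LHCB1 kept it with its copies summed (log2 0.58, adjusted p = 0.00854). In prmt5-5, 4 members were higher in Ler (LHCB1.1, LHCB1.2, LHCB2.2 and LHCA1) and 1 lower (LHCA6), where 14% of all genes were called higher and 14.1% lower. That count ranged from 3, without Col prmt5-5 replicate 1 or 2 or without Ler prmt5-5 replicate 1 or 2, to 10, without Col WT replicate 2, and was 2 with copies summed, when LHCB1.1, LHCB1.2 and LHCB2.2 lost their calls. LHCA1 had the same sign in both genotypes, with log2 differences of 0.61 in WT and 0.56 in prmt5-5.

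Promoters of the members were compared with those of all genes, as a description of letters and with nothing drawn about binding. The windows were the 250 bases before each gene's start in RefSeq TAIR10.1. The motif CCAATC, on either strand, was present in 11 of 42 members (26.2%, against 10.2% of 27443 promoters), and 10 of the 11 were antenna genes. The G-box CACGTG was present in 8 members (19.0%, against 6.5%), the I-box GATAAG in 9 (21.4%, against 12.3%) and the CCA1 site AAAAATCT in 5 (11.9%, against 6.7%), whereas TATAAA was as common in members (45.2%) as in all promoters (47.3%). The evening element AAAATATCT, which does not contain the CCA1 letters, was in 1 member (2.4%, against 2.4%). The 4 promoters shown are those of LHCB2.1, LHCA4, LHCB1.4 and LHCB3, the first pair with CCAATC and the second without it, and all of these genes fell in both accessions. Capitals mark I-box and CCAATC in LHCB2.1 (chr2:1824481-1824730, minus strand), CCA1 site, CCAATC and G-box in LHCA4 (chr3:17495034-17495283, minus strand), CCA1 site in LHCB1.4 (chr2:14524357-14524606, plus strand) and TATA boxes in LHCB3 (chr5:22037915-22038164, plus strand), with motifs on the other strand shown as their reverse complement.
LHCB2.1: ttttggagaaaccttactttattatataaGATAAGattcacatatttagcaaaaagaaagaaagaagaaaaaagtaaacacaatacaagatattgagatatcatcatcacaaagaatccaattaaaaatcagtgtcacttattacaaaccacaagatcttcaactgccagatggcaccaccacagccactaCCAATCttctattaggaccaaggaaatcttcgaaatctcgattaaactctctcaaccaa
LHCA4: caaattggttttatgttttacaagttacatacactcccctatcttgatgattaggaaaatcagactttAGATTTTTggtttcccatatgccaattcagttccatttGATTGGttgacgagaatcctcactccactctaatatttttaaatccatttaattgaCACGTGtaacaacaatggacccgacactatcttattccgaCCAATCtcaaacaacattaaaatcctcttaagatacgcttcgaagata
LHCB1.4: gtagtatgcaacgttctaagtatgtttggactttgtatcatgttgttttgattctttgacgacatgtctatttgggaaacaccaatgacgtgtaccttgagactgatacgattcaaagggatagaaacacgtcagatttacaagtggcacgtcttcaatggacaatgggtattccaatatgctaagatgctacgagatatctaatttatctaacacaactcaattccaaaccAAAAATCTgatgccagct
LHCB3: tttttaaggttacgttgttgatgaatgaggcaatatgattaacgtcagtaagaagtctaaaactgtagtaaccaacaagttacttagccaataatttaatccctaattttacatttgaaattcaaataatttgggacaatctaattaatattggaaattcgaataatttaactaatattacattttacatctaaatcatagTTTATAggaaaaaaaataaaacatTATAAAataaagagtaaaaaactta
The 10 antenna genes with CCAATC had a median log2 change of -0.56 in Col, where 9 fell, and of -0.73 in Ler, where 10 fell. The 10 without it had -0.54 in Col, where 7 fell, and -0.53 in Ler, where 8 fell and LHCB4.3 rose. Gene structure was described in the same way, since PRMT5 is known for a role in splicing. The 10 members without an intron had a median of -0.53 in Col and -0.76 in Ler, with 9 and 10 called lower, and the 32 with introns had -0.35 and -0.47, with 19 and 27 called lower. The 5 LHCB1 copies are among those 10.

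Other genes of the light-harvesting pathway were counted by lists of the pathway's steps, to be read beside the shares of all genes called, which were 12.3% lower and 14.6% higher in Col and 16.9% lower and 18.9% higher in Ler. Of 14 electron carriers and ATP synthase subunits, 8 fell in Col and 3 in Ler, among them PGRL1B, a cyclic electron flow protein, with log2 values of -0.35 and -0.61, and the ATP synthase subunits PDE334 (-0.41 and -0.35) and ATPC1 (-0.26 and -0.25). Of 17 chlorophyll synthesis genes, 4 fell and 1 rose in each accession. PORB, a protochlorophyllide reductase, rose by 0.49 in Col and fell by 0.95 in Ler on the log2 scale (interaction -1.43 ± 0.16, adjusted p = 0.0003671). Its relative PORA fell by 1.05 in Ler, and LIN2, a coproporphyrinogen oxidase, rose by 0.28 there. Of 6 chlorophyll breakdown genes, 1 fell in Col, and in Ler NOL, a chlorophyll b reductase, fell by 0.32 and PPH, a pheophytinase, rose by 0.30.

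Beside the same shares of all genes, of 5 genes for LHC insertion into the thylakoid, 1 fell in Col and 2 in Ler, the insertase ALB3 (-0.32 in Ler) and CAO (AT2G47450), which encodes the chloroplast signal recognition particle subunit for LHC delivery (-0.51 in Col and -0.40 in Ler). Of 8 LHC-like stress proteins, 2 fell and 1 rose in Col and 1 fell in Ler, with OHP2 at -0.47 and -0.42 and ELIP2, an early light-induced protein, at 0.87 in Col. Of 3 kinases and phosphatases of LHCII and photosystem II, STN7 fell in Col (-0.26) and STN8 and TAP38 fell in Ler (-0.32 and -0.20). Of 15 regulators of photosynthesis genes, 4 fell in Col, and 5 fell and 2 rose in Ler. GLK2, an activator of antenna genes, had log2 changes of -0.45 (adjusted p = 0.002402) in Ler and -0.24 (adjusted p = 0.07732) in Col. The light-signalling factors PIF3 and PIL6 fell by 0.43 and 0.73 in Ler.

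Markers of other tissues and states moved with the groups in part, beside the same shares of all genes (12.3% lower and 14.6% higher in Col, 16.9% and 18.9% in Ler). Of 20 root markers, 1 fell and 1 rose in Col, and 5 fell and 1 rose in Ler, and their summed level was 2506 to 2975 CPM in Col WT, 2334 to 2918 CPM in Col prmt5-5, 4169 to 4637 CPM in Ler WT and 3236 to 3478 CPM in Ler prmt5-5. Root markers were thus detected in the labelled entire seedlings, and their sum was lower in Ler prmt5-5, as the members' was. Of 14 salicylic acid defence markers, 1 rose in Col and 12 rose in Ler, with sums of 113 to 195.1 CPM in Ler WT and 300.9, 1267 and 952.8 CPM in Ler prmt5-5 replicates 1, 2 and 3. The mutant library with the least defence RNA, Ler prmt5-5 replicate 1, had the highest summed members of its group. In Col these markers summed to 148.3 to 186.7 CPM in WT against 130.3 to 210.2 CPM in prmt5-5, where the members fell too. Of 7 epidermis and guard cell markers, 2 rose in Col and 1 in Ler, and of 3 senescence markers tested, 1 fell in Col, and 2 fell and 1 rose in Ler. The part of these tissues and states in the members' changes was not tested.

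The next comparison asked whether the same genes changed in hybrids. Only reads assigned to an allele were counted there, so CPM in F1 and parental libraries are not on a common scale. In WT, F1 levels ran from 0.0256% of the parental level (PSAN) to 482% (LHCB2.1), and LHCB4.3, PSAN and PSBY were too low to be tested. In F1 Col x Ler 9 of 39 members tested fell and 1 rose, where 1.85% of all 17301 genes were called lower and 3.7% higher. In F1 Ler x Col 22 fell and 1 rose, where 6.43% of all genes were called lower and 6.91% higher. The median log2 change of the 39 members was -0.43 and -0.73 (all genes, -0.00778 and -0.00102). The difference between the crosses was not called for any member, nor for any gene, with 756 genes at an unadjusted p under 0.05. LHCB2.3 (-0.69 ± 0.26), PSAF (-0.58), PSAE1 (-0.73) and LHCB4.1 (-0.43) had the smallest p (adjusted p = 0.9605 for each). Single libraries decided the count in F1 Col x Ler, in either direction. It was 4 without WT replicate 1, 3 without WT replicate 2 or prmt5-5 replicate 1, 2 without prmt5-5 replicate 2 and 1 without prmt5-5 replicate 3. In each of these fits 1 member, PSBR, was called higher. The members called lower were thus 3 without WT replicate 1, 2 without WT replicate 2 or prmt5-5 replicate 1, 1 without prmt5-5 replicate 2 and 0 without prmt5-5 replicate 3.

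By role, 3 of 9 major LHCII genes fell in F1 Col x Ler and 8 of 9 in F1 Ler x Col, 2 and 4 of 4 minor antenna genes, 2 and 2 of 6 LHCI genes, 0 and 3 of 11 photosystem I genes, 0 and 2 of 5 oxygen-evolving complex genes, and 2 and 3 of 4 other photosystem II genes, of which PSBR rose in each cross. LHCB3 had 1327, 1487 and 1382 CPM in WT F1 Col x Ler and 680.9, 668.8 and 587 CPM in the mutant (log2 -1.12 ± 0.22, adjusted p = 0.01134). In F1 Ler x Col it had 981.4, 1264 and 1790 CPM in WT against 557, 402.2 and 301.8 CPM in the mutant (log2 -1.68 ± 0.23, adjusted p = 0.0004909). The groups did not overlap in either cross, and WT Ler x Col replicate 1 was the lowest WT library. LHCB6 had 4478, 4151 and 3777 CPM against 2665, 2482 and 2376 CPM in F1 Col x Ler (log2 -0.72, adjusted p = 0.009619), and 3492, 4149 and 4303 CPM against 2189, 1628 and 1622 CPM in F1 Ler x Col (log2 -1.13, adjusted p = 0.0002633), also without overlap.

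LHCB2.1 had 10400, 9289 and 8646 CPM in WT F1 Col x Ler and 4298, 5203 and 3885 CPM in the mutant, and 6548, 9300 and 11660 CPM against 4929, 2863 and 3380 CPM in F1 Ler x Col. It fell by 1.08 and by 1.30 on the log2 scale (adjusted p = 0.01285 and 0.002112), with no overlap. LHCB4.2 had 8272, 7219 and 6678 CPM against 4436, 4438 and 3944 CPM in F1 Col x Ler, and 5703, 8157 and 8550 CPM against 4350, 2920 and 3096 CPM in F1 Ler x Col (log2 -0.79 and -1.11). PSBW had 1299, 1209 and 1230 CPM against 841.5, 810 and 711 CPM, and 1075, 1384 and 1660 CPM against 837.9, 630.6 and 593 CPM (log2 -0.66 and -0.998). In each of these genes every mutant library was below every WT library of its cross, and in Ler x Col the mutant replicate 1 was the highest mutant library.

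PSBR (AT1G79040, chr1:29735952-29737009, plus strand), which helps assemble the oxygen-evolving complex, was the only member called higher in the hybrids. It had 25.9, 19.1 and 12.1 CPM in WT against 53.9, 41.5 and 47.1 CPM in the mutant of F1 Col x Ler (log2 1.34 ± 0.23, adjusted p = 0.00472). F1 Ler x Col gave 16.0, 22.4 and 15.3 CPM in WT against 45.2, 38.0 and 44.3 CPM in the mutant (log2 1.24 ± 0.23, adjusted p = 0.003287). These levels were 0.541% of the parental level, and in the parents PSBR had 2501 to 3819 CPM and log2 changes of -0.28 in Col and -0.36 in Ler. The gene overlaps AT1G79050 in the annotation, and other members, LHCB3, LHCB4.2 and PSBP1 among them, also overlap counted genes. Which reads entered the F1 counts was not tested. The members were therefore also counted by F1 level, a split at 10% of the parental level that was chosen after the values were seen. Of the 23 members at or above it, 9 fell and none rose in F1 Col x Ler, and 19 fell and none rose in F1 Ler x Col (medians -0.56 and -0.84). Of the 16 tested members below it, PSBR alone was called in F1 Col x Ler, and LHCB1.4, LHCB1.5 and LHCB5 fell in F1 Ler x Col, where PSBR rose. LHCB2.3 and PSAE1, not called, also had every mutant library above every WT library in F1 Col x Ler. LHCB2.3 had a log2 value of 0.63 there and was called with DESeq2 and without the low-count filter. PSBS, at or above the split and not called in the parents, fell in F1 Ler x Col (log2 -0.67, adjusted p = 0.003773) and had -0.35 (adjusted p = 0.1421) in F1 Col x Ler.

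**Figure D3:**
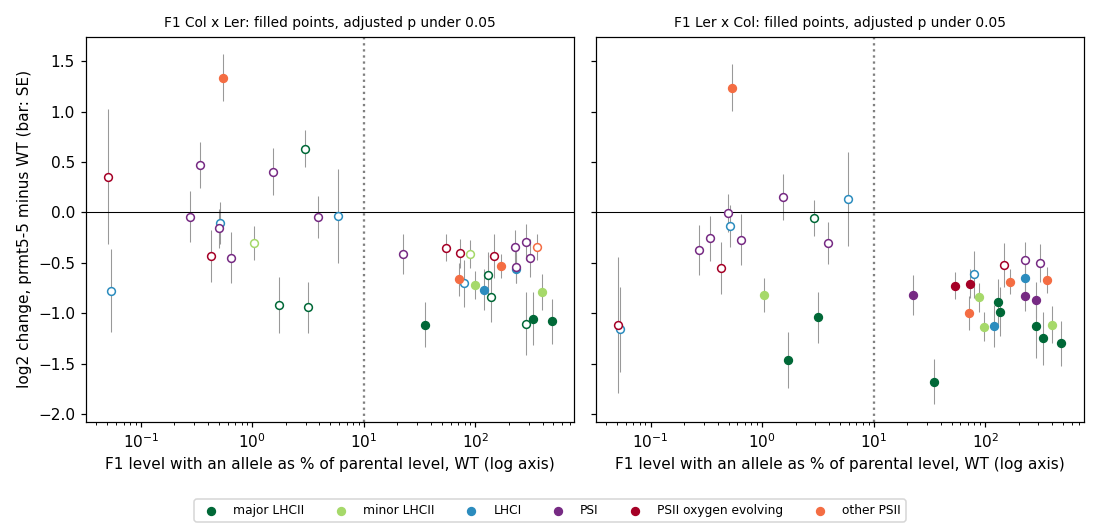
Change in prmt5-5 against WT (log2, y axis; bars, standard error) in each F1 cross against the F1 level as a percentage of the parental level in WT (x axis, log scale), 1 point per tested member, coloured by role and filled where adjusted p was under 0.05. Right of the dotted line at 10% all points lie below 0, and the filled point at the top left of each panel is PSBR.

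Allele counts within the hybrids asked whether Col and Ler copies of a gene differed in the same nuclei. In WT F1 libraries 14 of 39 members had fewer Ler than Col counts and 8 had more, where 15.4% and 13.6% of all 17301 genes were called. In prmt5-5 the counts were again 14 and 8, where 18.1% and 14% were called. All 7 near-identical copies had fewer Ler counts in both genotypes, with a median log2 ratio of -0.96 in WT, and the other members had a median of 0.02, with 7 lower and 8 higher. The Ler share of allele counts in WT was 31.4% for LHCB1.3, 33.1% for LHCB1.2, 33.1% for LHCB2.2, 34.0% for LHCB2.1, 33.9% for LHCB1.4, 41.2% for LHCB1.5 and 42.6% for LHCB1.1. Among members with no near-identical copy, LHCB6 had 49.8%, LHCA4 51.1%, PSAF 52.0% and LHCB3 46.4%, while LHCB4.2 had 42.7%, a share near that of LHCB1.1.

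By library, LHCB2.1 had Ler shares of 33.1, 33.5 and 34.0% in WT F1 Col x Ler and 34.9, 33.4 and 34.7% in WT F1 Ler x Col, on 46371 to 257316 counts per WT library (log2 -0.96 ± 0.01, adjusted p = 1.75e-42). LHCB2.2 had 33.6, 34.0 and 34.0% and 34.2, 32.0 and 33.2% in the same order, and LHCB1.2 had 32.9, 33.3 and 33.6% and 32.3, 32.3 and 34.1%. The crosses overlapped for all of these copies, so the low Ler share was present in both crosses. PSBP1 stood at the other end with 87.8% Ler on 1441 counts in WT, where its libraries ran from 82.3 to 92.5%, and 84.4% on 934 counts in prmt5-5. Its F1 level was 0.426% of the parental level.

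**Figure D4:**
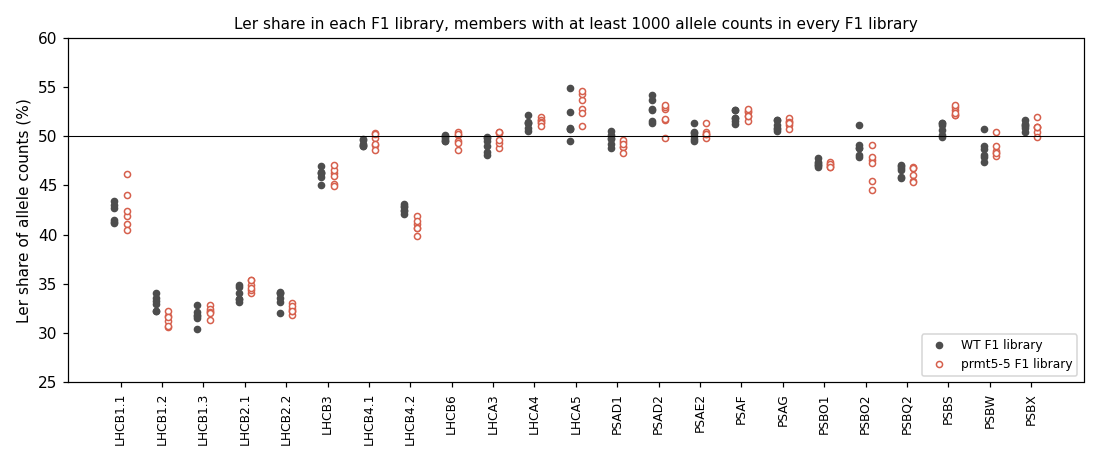
Share of allele counts from Ler (%, y axis) in each WT (filled) and prmt5-5 (open) F1 library for the 23 members with at least 1000 allele counts in every F1 library, with a line at 50%. LHCB1.2, LHCB1.3, LHCB2.1 and LHCB2.2 lie between 30.4 and 35.5% in all libraries, and the PSBS and LHCB4.2 points of the genotypes do not overlap.

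The allele ratio of 4 members was called as different between prmt5-5 and WT F1 libraries, with Ler shares lower in prmt5-5 for 3 and higher for 1, where 2.71% and 1.08% of all genes were called. For PSBS the shares were 49.97, 50.67 and 51.12% in WT F1 Col x Ler, 50.16, 51.35 and 51.30% in WT F1 Ler x Col, and 52.15, 52.69 and 52.16% and 52.96, 52.40 and 53.13% in the mutants. Every mutant library was above every WT library, a log2 change of the ratio of 0.11 ± 0.02 (adjusted p = 2.265e-05). For LHCB4.2 they were 42.12, 42.49 and 43.08% and 42.77, 42.95 and 42.41% in WT against 41.95, 41.09 and 41.40% and 40.64, 40.73 and 39.82% in the mutants, again without overlap and in the other direction (-0.10 ± 0.02, adjusted p = 2.853e-05). LHCB1.2, at 32.25 to 34.10% in WT and 30.67 to 32.30% in prmt5-5, and LHCB2.2, at 32.04 to 34.16% and 31.81 to 33.10%, overlapped (-0.11 and -0.07, adjusted p = 0.0003314 and 0.02964) and belong to the near-identical copies. Both lost their calls with copies summed: LHCB1 then had -0.0254 (adjusted p = 0.458) and LHCB2 0.0083 (adjusted p = 0.946), of the other sign. All of these changes were small, at most 1.08-fold.

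The difference between parental seedlings minus that between alleles was then tested. In WT 12 members had a higher value in the parents and 3 a lower one, where 5.83% and 6.12% of all 16205 genes were called. In prmt5-5 the counts were 8 and 1, where 6.41% and 3.67% of 16810 genes were called, and 14 in all without Ler prmt5-5 replicate 1. All 7 near-identical copies were among the higher ones in both genotypes, with a median of 1.34 in WT and 1.13 in prmt5-5, against a median of 0.20 for the other members in WT, of which 5 were higher and 3 lower. For LHCB1.3 the value was 1.34 ± 0.12 (adjusted p = 7.361e-08), for LHCB1.5 1.34 ± 0.15 (1.156e-05), for LHCB2.2 1.73 ± 0.19 (3.162e-05), and for LHCB1.2 1.82. For LHCB1.2 and LHCB2.2 the parental value was above 0 and the allelic value below 0, but the parental difference was not called for LHCB2.2 with the LHCB2 copies summed (log2 0.21, adjusted p = 0.345). LHCB1.4 had the largest such value in WT, 2.22. PSBP1 had the opposite sign, -2.70 ± 0.16 in WT and -2.37 ± 0.20 in prmt5-5 (adjusted p = 6.593e-11 and 9.403e-07). The value combines counts of whole genes with allele-assigned counts, and the part of read assignment between copies in it was not tested.

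**Figure D5:**
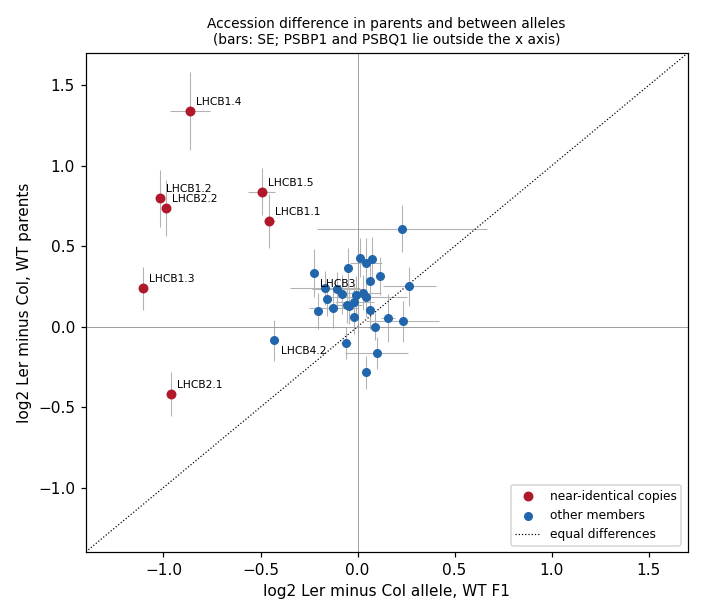
Difference of Ler from Col in WT parents (log2, y axis) against the difference of the Ler from the Col allele in WT F1 libraries (log2, x axis), 1 point per member with standard errors, and a dotted line where both are equal. The 7 near-identical copies (red) lie left of 0 on the x axis and above the line, and PSBP1 and PSBQ1 lie outside the x axis.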

How the data were processed

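Each of the 24 libraries holds RNA of entire seedlings. According to the labels' protocols, libraries were made with TruSeq from polyadenylated RNA (3 µg of total RNA as input) and read to 100 bases. Trim Galore, FastQC, STAR 2.7.9a and TAIR10 are named per the submitters' processing notes. The counter, annotation, strand setting and allele assignment were not given in the sources used here. Raw counts per gene were deposited by the authors, with 1 column per parental library and a Col and a Ler column per F1 library.

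Tests used the quasi-likelihood method of edgeR 4.0.16 (R 4.3.3) (robust fit, TMM, filterByExpr, Benjamini-Hochberg over all genes tested, two-sided, threshold 0.05). The 12 parental libraries formed a fit with a mean per group, the summed alleles of the 12 F1 libraries another, and the 24 allele columns a further fit with library as a block and a shared library size. The parental minus allelic difference was fitted within each genotype. The tests were tried on simulated data. Levels are CPM, and SE is the standard error of a log2 change. A share's interval is the exact binomial one. Alternatives were DESeq2 1.42.0, RLE factors, no filter, copies summed, single crosses, each library left out and the replicate number as a factor.

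The members and lists were chosen with earlier results of these data known. Library values are given for PRMT5, for many of the members among the 4 with the smallest p in a comparison and for the member of each role with the largest change in Col or Ler. They are not given for LHCB1.3 or for the 4 members named for the difference of the F1 effects. Up to 3 genes of each other list are named by p in Ler, and further genes were named after their values were seen. Near-identity was taken from coding sequence, at 90%, in place of protein. No member lay in a Col segment, that is, where the median Ler share of its 20 nearest genes was under 40% in prmt5-5 F1 and at least 45% in WT F1.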

Additional observations from a re-analysis of the deposited data

Results flagged for a closer look

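Among the 39 members tested, 4 differences between genotypes passed the test of the difference itself, all in the ratio of Ler to Col allele counts within F1 libraries. The log2 ratio changed by -0.1104 for LHCB1.2, by -0.0693 for LHCB2.2, by -0.1009 for LHCB4.2 and by 0.1051 for PSBS in prmt5-5 against WT. Over all settings tried, PSBS ranged from 0.094 to 0.1128 and passed the threshold in each (highest adjusted p 0.0182). LHCB4.2 ranged from -0.1375 to -0.0643 and was not called with F1 Col x Ler libraries only. LHCB1.2 ranged from -0.1354 to -0.0254 and was not called in 2 settings. LHCB2.2 ranged from -0.1109 to 0.0083. Of 19 settings, the main fit included, LHCB2.2 kept its sign but was not called in 10. It was also not called with copies summed, where its sign reversed (adjusted p = 0.946).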

How the results depend on the processing

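The direction of nearly all called members held: of 3219 values of called members under the alternatives, 2933 kept their direction and passed, 281 kept it without passing, and 5 reversed. Many of the 3219 come from fits without a library of a group that does not enter the difference, so the total overstates how firm the calls are. Without a library of a compared group, the calls fell from 28 to as few as 14 in Col and from 10 to 1 in F1 Col x Ler. That 1 was PSBR, called higher, so no member was called lower in that fit. The reversals came with copies summed, which gives each member its family's value: LHCB2.1 in Ler against Col WT (0.2056), PSAD2 between alleles in WT (-0.0077) and prmt5-5 (-0.0463), LHCB2.2 in the change of allele ratio (0.0083) and PSBQ1 in the parental minus allelic difference in WT (0.217). DESeq2 called 37 members in Col and 41 in Ler, 18 in F1 Col x Ler and 8 for Ler against Col in prmt5-5. With copies summed, 2 were called for Ler against Col in prmt5-5 and 2 for the change of allele ratio, which also had 2 with F1 Ler x Col libraries only. The cause was not tested.

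Leaving out each library in turn gave 14 to 38 called members in Col, 26 to 41 in Ler, 0 to 1 for the interaction, 8 to 15 for Ler against Col in WT and 3 to 10 in prmt5-5, 1 to 13 in F1 Col x Ler, 18 to 24 in F1 Ler x Col and 0 to 0 for their difference. It gave 20 to 22 for the alleles in WT and 20 to 22 in prmt5-5, 3 to 5 for the change of ratio, and 11 to 20 and 8 to 14 for the parental minus allelic difference in WT and prmt5-5.

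Equal replicate numbers were not treated as pairs in the main fits. Deviations of same-numbered libraries correlated above 0.1 in 2 of 18 parental pairs (-0.175 to 0.474) and in 8 of 18 F1 pairs (-0.374 to 0.59). The 2 parental pairs were Ler WT with Ler prmt5-5, replicates 1 and 2 (0.474 and 0.394), while replicate 3 gave -0.0669. Some same-numbered libraries thus varied together, and the source of this was not tested. With the replicate block, 28 members were called in Col, 37 in Ler, 13 and 5 for Ler against Col in WT and prmt5-5, 7 and 23 in the F1 crosses, none for their difference and 1, LHCB1.4, for the interaction.

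The F1 counts of 3 members, LHCB4.3, PSAN and PSBY, were too low to be tested, with 3 counts for LHCB4.3 in all WT F1 libraries together. In CPM, which are scaled to library size, their WT F1 levels were 0.0863%, 0.0256% and 0.0374% of the parental level. Some tested members also had few counts, with 1 to 32 per F1 library for PSBQ1 and 4 to 68 for LHCA1. The cause of these low counts was not tested.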
